A study of Mus musculus with 66 samples.

Results

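The comparison set whole cerebellum of mouse embryos on embryonic day 16 (E16) against embryonic day 15 (E15), in 2 inbred strains. Arrays were taken by their age label: 3 C57BL/6J (B6) and 3 DBA/2J (D2) arrays at E16, and 3 C57BL/6J and 3 DBA/2J arrays at E15. These are 12 of the 66 arrays in the series, which follows both strains from E12 to the early postnatal weeks on Illumina bead arrays. No group carried a mutation, transgene or treatment, while the sources used here give neither the number of cerebella behind a sample nor the sex of the embryos. The replicates are called biological in the labels.

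In the mouse these days fall in mid to late cerebellar development. Purkinje cells have left the ventricular zone and are settling under the surface, granule cell progenitors spread from the rhombic lip over the outside of the cerebellum, and neurons of the cerebellar nuclei gather deeper in the tissue. Oligodendrocyte precursors enter the cerebellum in the same period, and in the circulation red cells of the fetal liver take over from the yolk sac cells that carry embryonic globins.

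The E16 arrays had median signals of 78.9 to 92.4 and the E15 arrays of 85.1 to 96.1, and the brightest probe of an array lay between 13182 and 46533. After quantile normalization the median of every array was 6.44 on the log2 scale, the scale of all levels below. Genes of the cerebellar primordium were well above that median at both ages: Zic1, a factor of granule cell progenitors, averaged 13.35 and 12.59 in B6 and D2 at E16, against 13.08 and 12.59 at E15, and Lhx1, a factor of Purkinje cells, 12.47 and 11.78 at E16, against 12.14 and 12.23 at E15. The 12 arrays lay on 9 chips, and 0 chips held both ages. They fell into 4 array series (chips whose numbers begin alike), of which 3 held both ages, so age and chip could be separated only through the other ages on those chips. One D2 E16 array, replicate 1, stood apart: the hindbrain gene Hoxb2 read 9.09 there, against 6.36 to 6.92 on the other 11 arrays. On that array the mean of 13 midbrain and brainstem genes was 8.01 and that of 19 oligodendrocyte genes 8.38, against 7.43 and 7.37, and 7.82 and 7.72, on the other D2 E16 arrays.

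More transcripts rose than fell at E16. The test covered 26645 probes that lay over the array median on all arrays of some group, at any age. Of these probes, 901 (3.38%) passed the test in the mean of both strains: 721 (2.71%) were higher at E16 and 180 (0.676%) were lower (limma, two-sided, Benjamini-Hochberg adjusted p under 0.05). Taken as 1 probe a gene, 481 of 14017 genes (3.43%) were called, 354 (2.53%) higher and 127 (0.906%) lower. The median change over all genes was -0.02. With arrays scaled to equal medians in place of quantiles the split was 1397 higher and 38 lower, and the median change 0.06. Most changes were modest, and 52 of the 901 probes moved at least 2-fold, 47 of them up and 5 down. The sign was the same in B6 and D2 for 895 of the 901, and for 407 of them the E16 and E15 arrays did not overlap within either strain. Both counts only describe probes that were chosen on these same arrays. Over all genes, 494 (3.52%) separated the ages without overlap, in the same direction, in both strains.

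**Figure D1:**
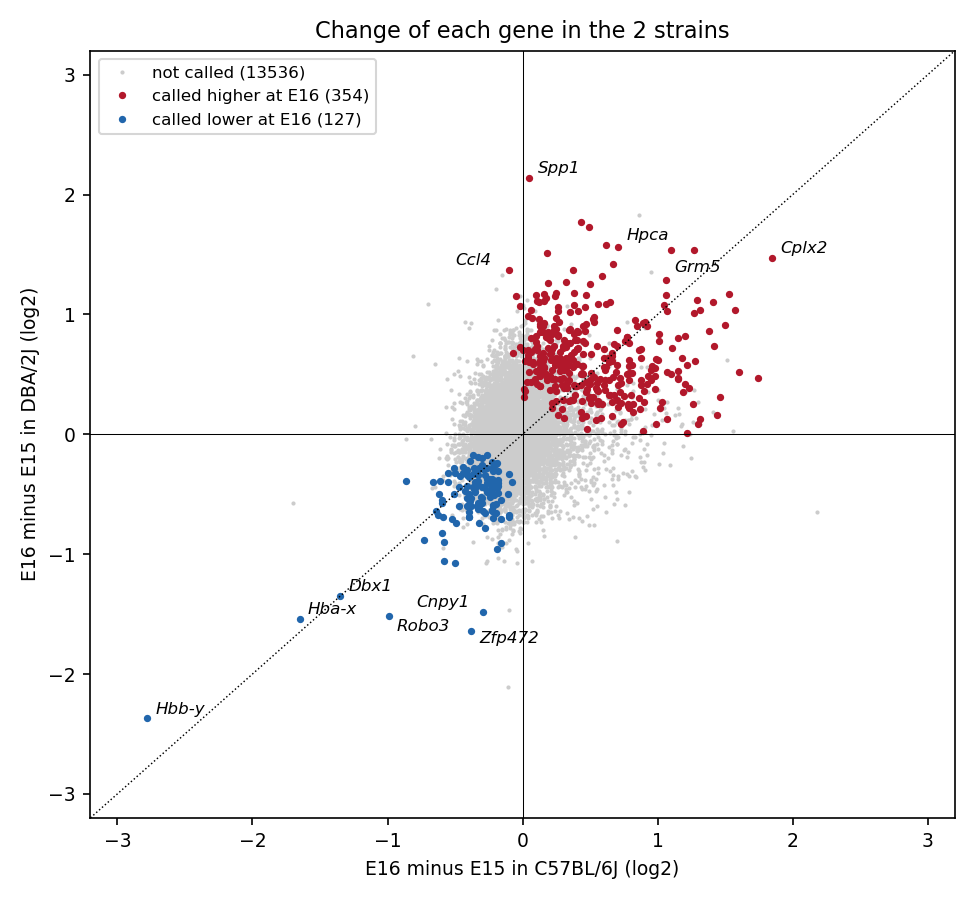
Each point is a gene, with its E16 minus E15 change in C57BL/6J on the x axis and in DBA/2J on the y axis (log2). The 354 genes called higher lie mainly in the upper right and the 127 called lower in the lower left, with Hbb-y farthest down and Spp1 high in DBA/2J alone.

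The count of calls depended on single arrays and on how chips were handled. Leaving out 1 of the 12 arrays at a time gave 293 to 1164 called probes, with the lowest counts without D2 E15 replicate 1 (293), B6 E16 replicate 3 (353) and B6 E15 replicate 2 (356). Without D2 E16 replicate 1 it was 549, without D2 E16 replicate 2 it was 551, and without both, which shared a chip, it was 104. With a term in the fit for each array series (blocked by array series below) 326 probes were called. A term for each chip (blocked by chip) left 26, and the chip taken as a random effect 285. Nearly all of the 901 kept their sign in those fits (901, 900 and 901). Inside the array series that held both ages the E16 arrays could be set directly against E15 arrays in 3 comparisons. Of the 901, 701 (77.8%) had the same sign in all of them, against 25.2% of all tested probes. The 901 were chosen on these same arrays, so this count is a description.

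The steepest falls were those of the embryonic globins. Hbb-y, an embryonic beta-like globin, read 7.52, 7.25 and 7.29 in B6 and 9.60, 8.99 and 8.79 in D2 at E16, against 10.35, 10.13 and 9.92 in B6 and 11.67, 10.77 and 12.05 in D2 at E15. Every E16 array lay below every E15 array, and the D2 arrays were the higher ones at both ages. The change was -2.58 ± 0.31 (SE, adjusted p = 4.09e-06, limma), a 5.97-fold lower signal at E16, with -2.78 in B6 and -2.37 in D2. Hba-x, the embryonic zeta globin, read 7.51, 7.30 and 7.24 in B6 and 9.20, 8.70 and 7.82 in D2 at E16, against 9.32, 9.11 and 8.58 in B6 and 9.91, 9.87 and 10.54 in D2 at E15. Within each strain the ages did not overlap, while D2 at E16 overlapped B6 at E15. Hba-x changed by -1.59 ± 0.25 (adjusted p = 0.000127), and the calls of both globins held with every block tried, including the chip as a fixed block (-2.91 and -2.04, adjusted p = 0.000175 and 0.0023).

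Genes for adult globin chains did not pass the test. Hba-a1, an adult alpha globin, averaged 14.44 and 14.66 in B6 and D2 at E16, against 14.65 and 14.29 at E15, a change of 0.08 ± 0.15 (adjusted p = 0.877). For Hbb-b1, an adult beta globin whose probes may also bind its close copies, the change was 0.27 ± 0.15 (adjusted p = 0.413). Both sat near the top of the signal range. Of 14 measured blood genes 2 rose (14.3%, against 2.53% of all genes), among them Car2, a carbonic anhydrase also expressed in brain (0.38). Another 2 fell (14.3%, against 0.906% of all genes), Hbb-y and Hba-x. In bulk tissue, fewer cells of a type and less RNA per cell cannot be told apart.

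The 250 bases before the annotated starts of Hbb-y (GRCm38.p6, chr7:103853208-103853457, minus strand), Hba-x (chr11:32276350-32276599, plus strand) and, as the gene of the adult chain in the Hba-x cluster, Hba-a1 (chr11:32283422-32283671, plus strand) are shown because the first pair fell together and the third did not pass the test. The sequences are from RefSeq. Capitals mark matches on either strand to 4 motifs known from globin promoters. The CACCC box was searched as CACCC and, on the opposite strand, as GGGTG. The CCAAT box was searched as CCAAT and its opposite ATTGG. For a TATA-like box the search used ATAAAA and its opposite TTTTAT, and for the GATA motif it used AGATAA, or TTATCT when read from the other strand of the window.
Hbb-y: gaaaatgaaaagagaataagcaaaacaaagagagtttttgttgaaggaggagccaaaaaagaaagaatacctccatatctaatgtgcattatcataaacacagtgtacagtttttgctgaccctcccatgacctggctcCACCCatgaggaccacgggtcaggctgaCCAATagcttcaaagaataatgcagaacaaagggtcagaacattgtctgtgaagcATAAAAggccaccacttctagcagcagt
Hba-x: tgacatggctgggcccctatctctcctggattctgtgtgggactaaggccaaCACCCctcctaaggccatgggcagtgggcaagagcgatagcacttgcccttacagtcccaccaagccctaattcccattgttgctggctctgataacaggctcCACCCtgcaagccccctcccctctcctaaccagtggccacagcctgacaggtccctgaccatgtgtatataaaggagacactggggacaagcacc
Hba-a1: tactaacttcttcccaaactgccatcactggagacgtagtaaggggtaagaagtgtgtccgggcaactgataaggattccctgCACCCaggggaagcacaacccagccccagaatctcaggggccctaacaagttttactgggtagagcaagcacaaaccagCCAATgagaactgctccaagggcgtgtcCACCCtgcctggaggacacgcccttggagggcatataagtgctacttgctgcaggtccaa
In Hbb-y the CACCC letters began 111 bases, CCAAT 83 bases and ATAAAA 28 bases before the start. Hba-x held CACCC at 198 and 95 bases and Hba-a1 at 167 and 60 bases, with CCAAT at 88 bases in Hba-a1. AGATAA was in none of the 3 windows. Only these exact letters were searched, so other forms of the motifs stay in small letters. Among them are tgataa in Hba-x and Hba-a1, its opposite ttatca in Hbb-y, and tataaa in Hba-x. The windows are therefore not said to lack a GATA motif or a TATA box. Over 32851 promoters of the same length, 52% held CACCC, 33.8% CCAAT, 17% ATAAAA and 9.99% AGATAA on either strand, so the matches are a description of these windows.

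**Figure D2:**
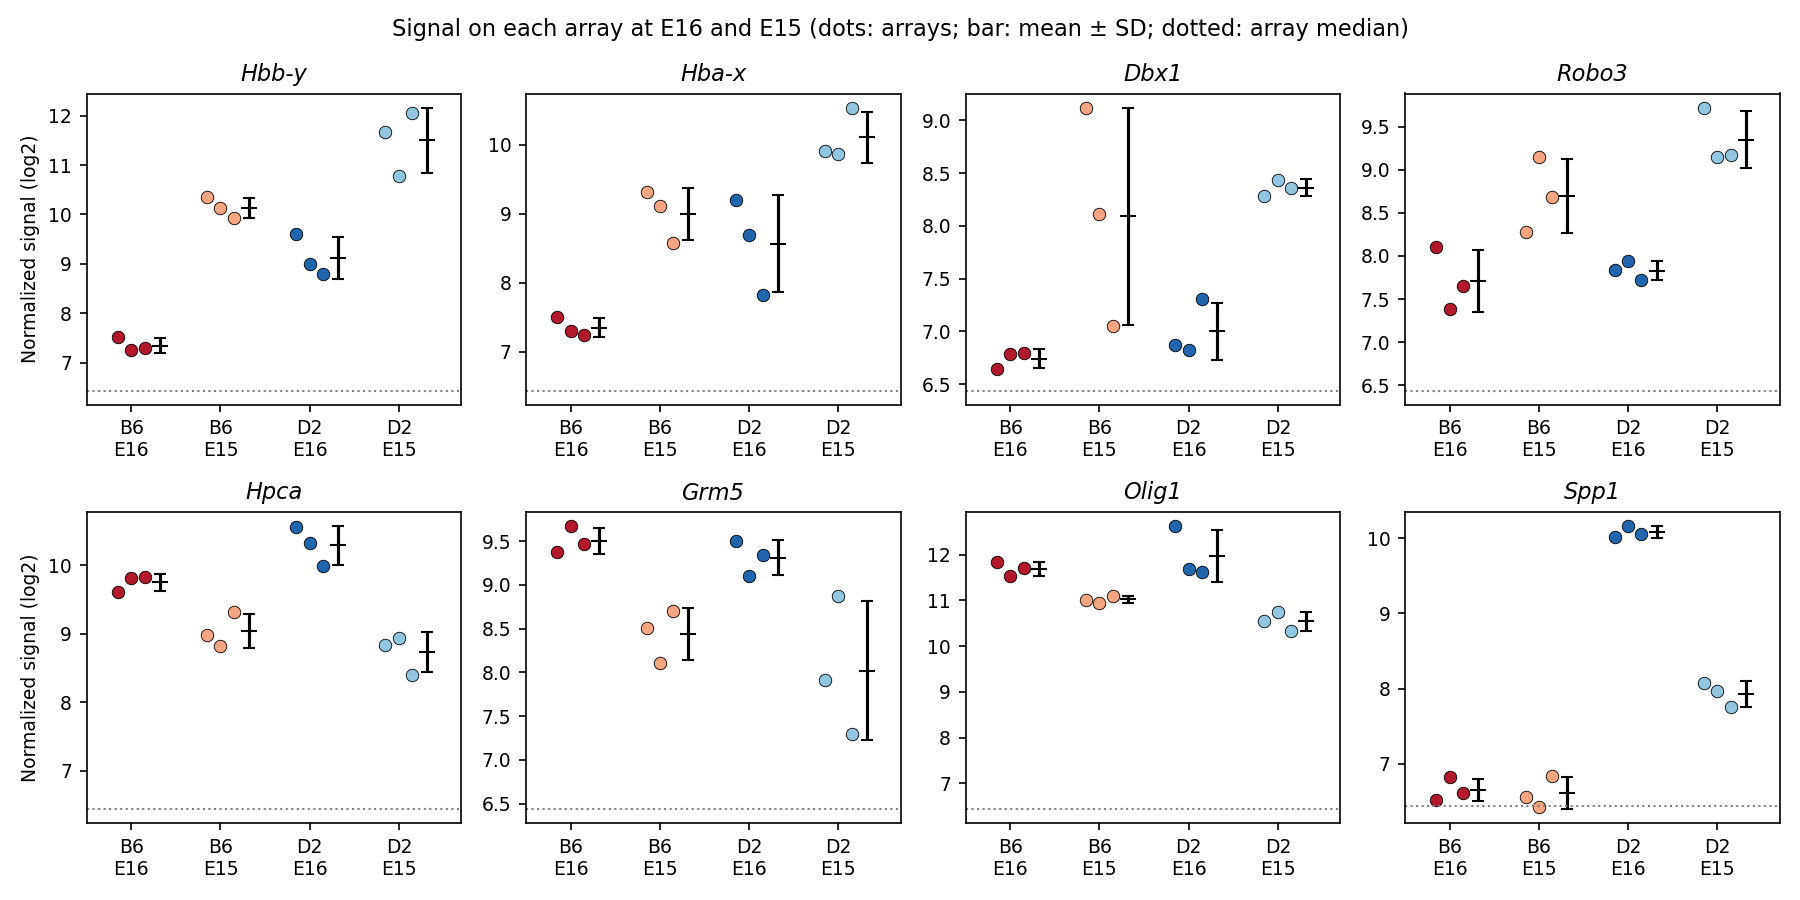
Normalized log2 signal on each of the 12 arrays for 8 genes, with B6 E16 left of B6 E15 and D2 E16 left of D2 E15, the mean ± SD of 3 arrays beside the dots and the array median of 6.44 as a dotted line. Hbb-y is lower on all 6 E16 arrays, and Spp1 is higher at E16 in D2 only.

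Among patterning genes the largest fall was that of Dbx1, a homeobox factor of ventral and intermediate neural progenitors. It read 6.64, 6.79 and 6.80 in B6 and 6.87, 6.82 and 7.31 in D2 at E16, against 9.12, 8.11 and 7.05 in B6 and 8.28, 8.43 and 8.36 in D2 at E15. All E16 arrays were close to the array median, and one B6 E15 array (7.05) fell among them while the other E15 arrays were clearly above. The change was -1.35 ± 0.22 (adjusted p = 0.000142), the same in each strain, and -1.58 when blocked by chip (adjusted p = 0.0434). A second, dimmer Dbx1 probe changed by -0.23 (adjusted p = 0.285).

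Robo3, the receptor that lets commissural axons cross the midline, was also lower at E16. It read 8.10, 7.38 and 7.65 in B6 and 7.84, 7.94 and 7.72 in D2 at E16, against 8.28, 9.15 and 8.68 in B6 and 9.72, 9.15 and 9.17 in D2 at E15. Every E16 array was below every E15 array. Its change was -1.25 ± 0.21 (adjusted p = 0.00039), or -0.84 when blocked by chip (adjusted p = 0.357). Both genes had been falling since E13: in B6 Dbx1 averaged 11.10 at E13, 9.25 at E14, 8.09 at E15 and 6.74 at E16, and Robo3 10.34, 10.14, 8.70 and 7.71.

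Smaller falls followed. Etv1, an ETS factor induced by FGF signalling, changed by -0.79 ± 0.17, Zfhx4, a zinc finger homeobox factor, by -0.82, Lbh, a transcriptional cofactor, by -0.81, and Msx3, a homeobox gene of the dorsal neural tube, by -0.65. Cnpy1, whose zebrafish counterpart modulates FGF signalling at the midbrain-hindbrain boundary, changed by -0.88, the PHD finger gene Phf21b by -0.74 and Marcksl1, an actin-linked MARCKS family gene of young neurons, by -0.71. Adjusted p-values of these 7 genes ran from 0.00455 (Etv1) to 0.0371 (Zfhx4). Cnpy1 read 7.71, 8.12 and 8.25 at E16 against 10.05, 9.01 and 9.45 at E15 in D2, and in B6 it read 9.40, 9.19 and 8.82 at E16 against 9.37, 9.23 and 9.68 at E15. The strain difference in its change, D2 minus B6, was -1.19 and was not called (adjusted p = 0.459). Blocked by array series, Cnpy1, Zfhx4 and Lbh were not called (adjusted p = 0.129, 0.098 and 0.0541). With arrays scaled to equal medians Msx3 (-0.47), Marcksl1 (-0.40) and Zfhx4 (-0.65) were not called (adjusted p = 0.12, 0.203 and 0.0549). The Zfhx4 call was lost in 9 of the 12 fits that left out 1 array.

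One fall rested on a pair of arrays. Zfp472, a zinc finger gene, read 8.03, 7.36 and 8.07 in B6 and 5.58, 5.58 and 8.35 in D2 at E16, against 8.11, 8.41 and 8.07 in B6 and 8.08, 8.11 and 8.25 in D2 at E15. The 2 readings of 5.58 came from the D2 E16 arrays that shared a chip and were the lowest of all 66 arrays, the next being 7.36. Its change of -1.01 ± 0.25 (adjusted p = 0.013) was -0.08 without that pair (adjusted p = 0.95).

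Cplx2, which encodes complexin 2, a regulator of synaptic vesicle fusion, had the largest rise with each gene taken at its brightest probe. Dimmer probes of Snhg11 and Btbd3 rose more, by 1.91 and 1.85 (limma, adjusted p = 0.000182 and 0.00117). The brightest probes of Snhg11 and Btbd3 changed by 0.39 and 0.63 and were not called. Cplx2 read 9.52, 9.61 and 9.87 in B6 and 10.00, 10.65 and 9.68 in D2 at E16, against 7.95, 6.99 and 8.53 in B6 and 7.81, 9.37 and 8.72 in D2 at E15. All 6 E16 arrays lay above all 6 E15 arrays, and the E15 arrays of each strain spread over more than 1 log2 unit. The change was 1.66 ± 0.33 (adjusted p = 0.00198), a 3.16-fold higher signal. Blocking by array series gave 1.15 (adjusted p = 0.0401) and blocking by chip 0.63 (adjusted p = 0.491).

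Kbtbd11, a BTB-kelch gene, rose by 1.40 ± 0.38, with D2 arrays 10.09 to 11.19 at E16 against 8.55 to 9.78 at E15. Other large rises were those of Ddx6, an RNA helicase of processing bodies (1.35), Nsd1, a histone methyltransferase (1.32), Chd1, a chromatin remodeller (1.30), Zfp326, a zinc finger gene (1.25), Cnot4, a ubiquitin ligase of the CCR4-NOT complex (1.18), and Lsm12, an Sm-like gene (1.14). Mmp16, a membrane-bound metalloproteinase, rose by 1.21 and Pdap1, which encodes a PDGF-associated protein, by 1.20. Adjusted p-values of these 9 genes lay between 0.00306 (Zfp326) and 0.0326 (Ddx6). The call of Ddx6 was lost in 8, and those of Kbtbd11 and Lsm12 in 6 each, of the 12 fits that left out 1 array.

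Other probes of the same genes and the blocked fits gave further values. Of the 12 genes with the largest rise 7 had another probe that passed the signal filter, and none of those was called. The other probes of Chd1, Nsd1 and Mmp16 changed by -0.06, -0.08 and 0.01, those of Cnot4 by -0.09 and -0.04, and those of Lsm12 by 0.66, -0.09 and -0.16. When blocked by array series 5 of the 12 rises stayed called (Cplx2, Nsd1, Mmp16, Grm5 and Hpca), against 9 of the 12 largest falls. When blocked by chip 2 rises (Grm5 and Hpca) and 3 falls (Hbb-y, Hba-x and Dbx1) did. Over all 354 genes called higher, 169 had another probe, of which 117 moved the same way in the brightest other probe 28 had another probe called the same way and 0 the opposite way. Over all 127 genes called lower, 48 had another probe, of which 40 moved the same way in the brightest other probe, 4 had another probe called the same way and 2 the opposite way.

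**Figure D3:**
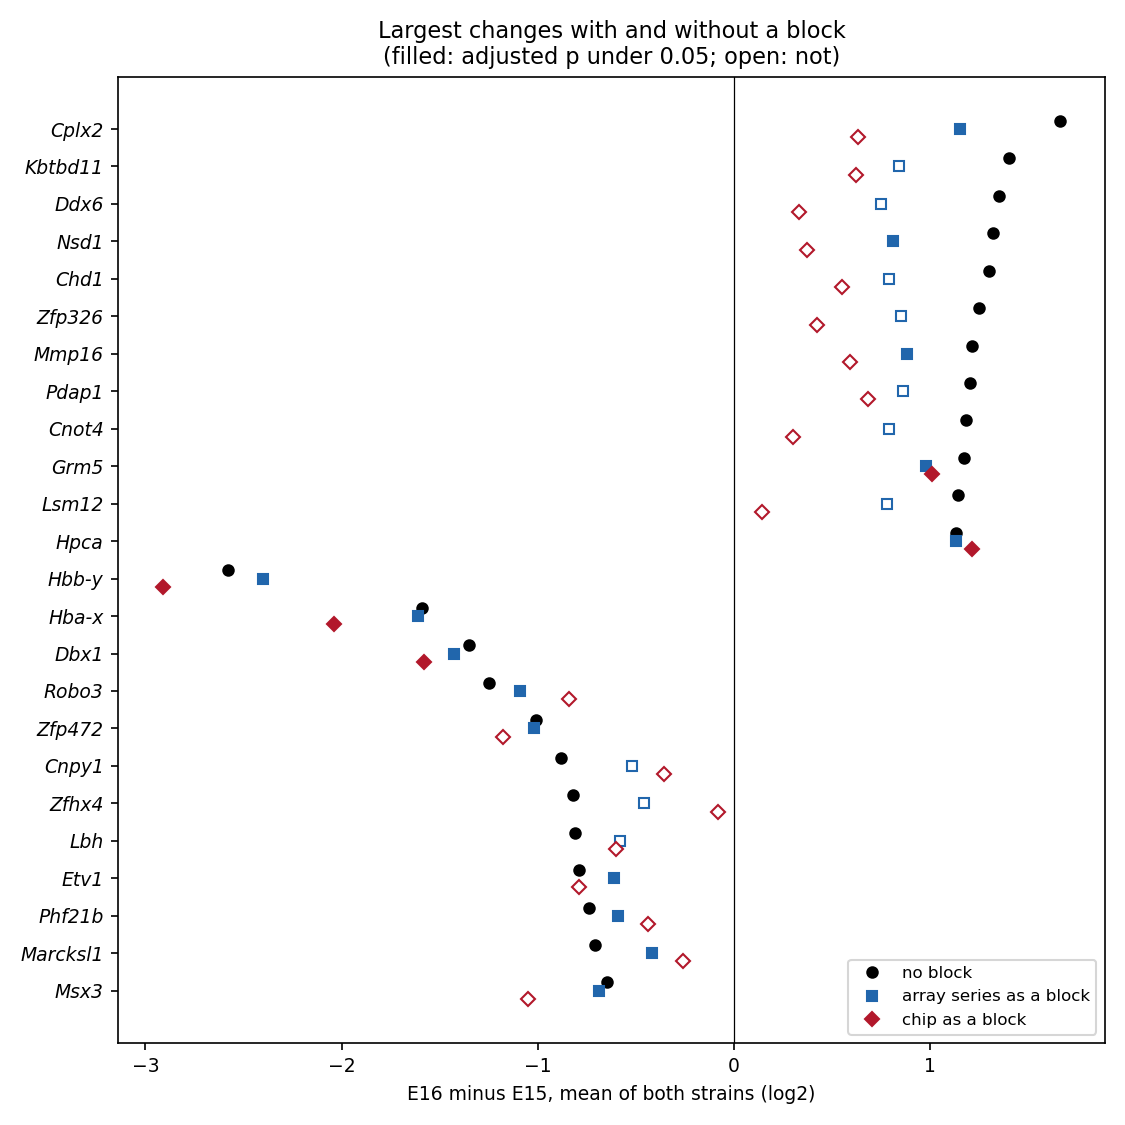
E16 minus E15 change (log2, x axis) of the 12 largest rises and 12 largest falls, without a block (circles), when blocked by array series (squares) and when blocked by chip (diamonds); filled symbols passed the test. Most rises shrink towards 0 with the chip as a block, while Hbb-y, Hba-x, Dbx1, Grm5 and Hpca stay filled.

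Hpca and Grm5, both neuronal signalling genes, were those of the 12 largest rises that stayed called when blocked by chip. Hpca, which encodes the calcium sensor hippocalcin, read 9.61, 9.81 and 9.83 in B6 and 10.56, 10.32 and 9.99 in D2 at E16, against 8.98, 8.82 and 9.31 in B6 and 8.84, 8.94 and 8.40 in D2 at E15. All E16 arrays were above all E15 arrays. Its change was 1.13 ± 0.18 (adjusted p = 0.000127) and 1.21 when blocked by chip (adjusted p = 0.0206). By strain the Hpca change was 0.71 in B6 (adjusted p = 0.198) and 1.56 in D2 (adjusted p = 0.000391). Grm5, the metabotropic glutamate receptor 5, read 9.37, 9.67 and 9.47 in B6 and 9.50, 9.10 and 9.34 in D2 at E16, against 8.51, 8.11 and 8.70 in B6 and 7.91, 8.87 and 7.30 in D2 at E15. Here too the ages did not overlap. Grm5 rose by 1.17 ± 0.21 (adjusted p = 0.000794) and by 1.01 when blocked by chip (adjusted p = 0.0241), while its 2 dimmer probes, near the array median, changed by 0.18 and 0.10 and were not called. The change of the brighter probe was 1.06 in B6 (adjusted p = 0.0705) and 1.29 in D2 (adjusted p = 0.0135).

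Genes of synapses, receptors and ion channels were called in 1 direction, up. Of 38 measured synapse genes 6 rose (15.8%, against 2.53% of all genes) and 0 fell, of 26 neurotransmitter receptor genes 5 rose (19.2%) and 0 fell, and of 28 voltage-gated channel genes 3 rose (10.7%) and 0 fell. At an unadjusted p under 0.05 the counts were 10 up and 0 down, 10 up and 1 down, and 8 up and 1 down (limma), against 8.09% of all genes up and 7.7% down at that p. Their median changes were 0.14, 0.14 and 0.13, against -0.02 over all genes. Besides Cplx2, synapse genes that rose included Syn2, which encodes synapsin 2 on vesicles (1.01 ± 0.21, adjusted p = 0.00306), and Sncb, beta-synuclein (0.81 ± 0.19, adjusted p = 0.0103). Sncb was 9.77 to 10.72 on the E16 arrays against 8.70 to 9.66 on the E15 arrays, with no overlap, and was not called without D2 E16 replicate 1 (0.69, adjusted p = 0.0551).

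Receptor genes that rose included, beside Grm5, the NMDA receptor subunit Grin2a (0.71 ± 0.14, adjusted p = 0.00198), the metabotropic receptor Grm7 (0.57 ± 0.11, adjusted p = 0.00222) and the kainate receptor subunit Grik1 (0.51). Grm7 read 9.41, 9.67 and 9.31 in B6 and 9.12, 8.77 and 9.07 in D2 at E16, against 8.93, 9.01 and 9.21 in B6 and 8.55, 8.46 and 7.77 in D2 at E15. The ages were apart within each strain, and a second Grm7 probe was called the same way. Among channels, the sodium channel genes Scn1a and Scn2a rose by 0.87 ± 0.16 (adjusted p = 0.00135) and 0.49. When blocked by array series 5 synapse, 5 receptor and 3 channel genes were called higher, and when blocked by chip Grm5 and Grm7 of this receptor list were called, while the adjusted p of Syn2 was 0.432 and that of Scn1a 0.166. Without the pair of D2 E16 arrays on the shared chip 0 synapse, 2 receptor and 2 channel genes were called higher, with Syn2 at 1.01 (adjusted p = 0.0576).

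**Figure D4:**
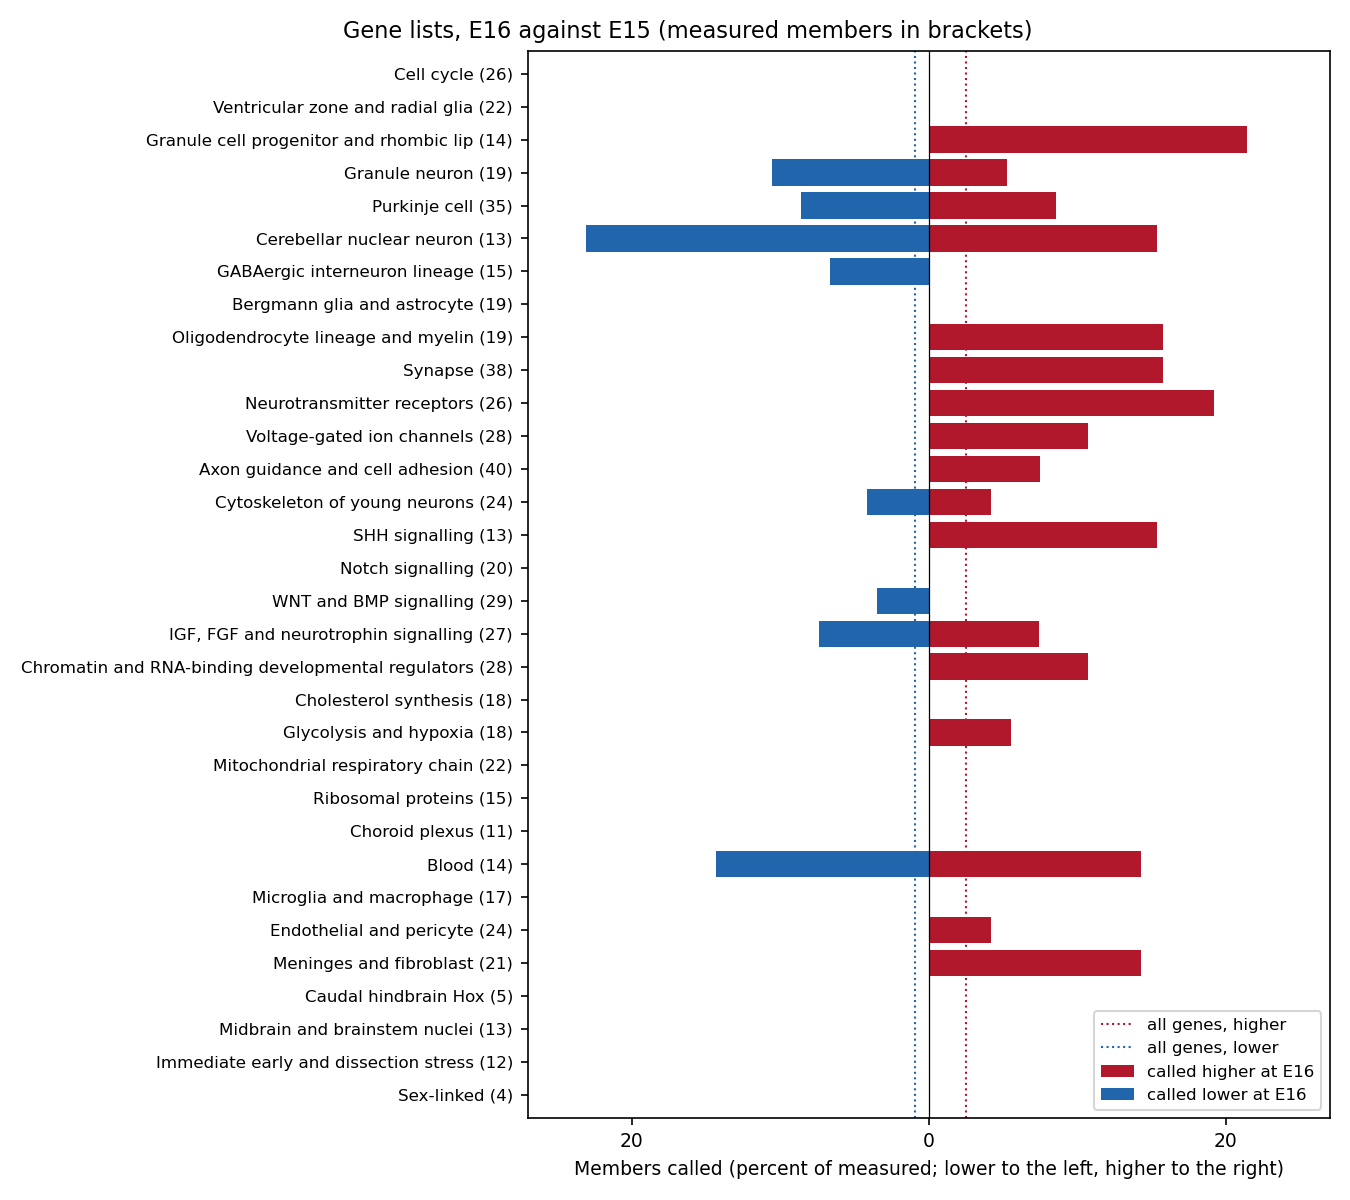
Percent of the measured members of each of 32 gene lists called higher (right) or lower (left) at E16, with dotted lines at the shares over all genes (2.53% higher and 0.906% lower). Receptor, synapse and oligodendrocyte genes were called higher only, and cell cycle, ventricular zone, Notch and ribosomal genes were not called.

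Genes of the oligodendrocyte lineage were called in 1 direction, up. Olig1, a basic helix-loop-helix factor of that lineage, read 11.83, 11.53 and 11.70 in B6 and 12.62, 11.68 and 11.61 in D2 at E16, against 11.00, 10.94 and 11.10 in B6 and 10.55, 10.74 and 10.34 in D2 at E15. The lowest E16 array was above the highest E15 array. Olig1 changed by 1.05 ± 0.17 (adjusted p = 0.000127). Pdgfra, the growth factor receptor of oligodendrocyte precursors, rose by 0.73 ± 0.17 (adjusted p = 0.00755), and Sox10, a factor of the same lineage, by 0.57 ± 0.16 (adjusted p = 0.0334). In all, 3 of 19 measured lineage and myelin genes rose (15.8%, against 2.53% of all genes) and 0 fell. At an unadjusted p under 0.05 (limma) 5 rose and 0 fell, against 8.09% of all genes up and 7.7% down. The median change over the 19 was -0.01 in B6, where 0 were called, and 0.40 in D2, where 3 were called higher. The strain difference was called for none of them.

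The D2 E16 array with the Hoxb2 signal carried the highest Olig1 (12.62) and Sox10 (8.18) readings. Without that array Olig1 changed by 0.88 (adjusted p = 0.00164), Pdgfra by 0.68 (adjusted p = 0.0307) and Sox10 by 0.39 (adjusted p = 0.206). The Sox10 call was also lost without B6 E16 replicates 2 or 3, B6 E15 replicate 2 or D2 E15 replicates 1 or 3. Without both D2 E16 arrays on the shared chip Olig1 was called (0.86, adjusted p = 0.0223) and Pdgfra was not (0.74, adjusted p = 0.091).

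Markers of cerebellar neurons moved in both directions. Of 14 granule cell progenitor and rhombic lip genes 3 rose (21.4%, against 2.53% of all genes) and 0 fell. Those that rose were Zic2, a zinc finger factor (0.80 ± 0.24, adjusted p = 0.0478, limma), Ccnd1, the G1 cyclin downstream of Sonic hedgehog (0.61 ± 0.12, adjusted p = 0.00255), and Mfap4, a matrix gene (0.44, adjusted p = 0.0478). Ccnd1 read 10.29, 10.51 and 10.91 in B6 and 11.27, 11.47 and 11.18 in D2 at E16, against 10.21, 10.02 and 10.14 in B6 and 10.30, 10.61 and 10.68 in D2 at E15, apart within each strain, and 2 further Ccnd1 probes were called the same way. The Zic2 call was lost in 7 of the 12 fits that left out 1 array. Zic2 and Mfap4 were not called when blocked by array series (adjusted p = 0.117 and 0.0853). Of 19 granule neuron genes 1 rose (5.26%), Grin2c, an NMDA receptor subunit (0.46). Etv1 and Chn2, a chimaerin that regulates Rac, fell (-0.79 and -0.51, 10.5% of the list, against 0.906% of all genes). The Grin2c call was lost in 10 and the Mfap4 call in 11 of the 12 fits that left out 1 array, and with arrays scaled to equal medians Chn2 was not called (adjusted p = 0.234).

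Purkinje cell genes were called in both directions, with 3 of 35 higher and 3 lower. That was 8.57% each way, against 2.53% of all genes higher and 0.906% lower. Kitl, the KIT ligand that Purkinje cells express, read 6.80, 7.15 and 7.89 in B6 and 7.06, 7.40 and 7.79 in D2 at E16, against 6.38, 6.22 and 6.57 in B6 and 6.35, 6.71 and 6.39 in D2 at E15. The ages did not overlap, and the change was 0.91 ± 0.19 (adjusted p = 0.00439). Cdh8, a cadherin of Purkinje cell clusters, rose by 0.79 ± 0.13 (adjusted p = 0.000275), with another of its probes called the same way. The engrailed homeobox genes, which pattern the cerebellar field, were lower: En1 changed by -0.64 ± 0.14 (adjusted p = 0.00558) and En2 by -0.54 ± 0.11 (adjusted p = 0.0021). En2 read 11.02, 11.74 and 12.17 at E16 against 12.46, 12.61 and 12.58 at E15 in D2, and B6 read 12.09, 12.25 and 11.96 at E16 against 12.38, 12.08 and 12.34 at E15. The strain difference in the En2 change, D2 minus B6, was -0.74 and was not called (adjusted p = 0.43). Without the D2 E16 pair on the shared chip En2 changed by -0.27 (adjusted p = 0.269). With arrays scaled to equal medians En1 and En2 were not called (adjusted p = 0.275 and 0.289).

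Of 13 cerebellar nuclear neuron genes 3 fell (23.1%, against 0.906% of all genes) and 2 rose. Tbr1, a T-box factor of nuclear neurons from the rhombic lip, read 7.94, 7.86 and 8.09 in B6 and 7.25, 7.64 and 7.93 in D2 at E16, against 8.14, 8.44 and 8.26 in B6 and 8.50, 8.19 and 8.37 in D2 at E15. Every E16 array was below every E15 array. Tbr1 changed by -0.53 ± 0.09 (adjusted p = 0.000421) and Lhx9, a LIM homeobox factor of the same cells, by -0.41 ± 0.10 (adjusted p = 0.0166). The Lhx9 call was lost when blocked by array series (adjusted p = 0.0841), with the chip as a random effect (adjusted p = 0.205), with equal medians (adjusted p = 0.101) and in 4 of the 12 fits that left out 1 array. Nrxn3, a presynaptic adhesion gene, rose by 0.81 ± 0.23 (adjusted p = 0.0417), although its change was -0.29 between E16 and E15 arrays within the D2 array series and its call was lost in 7 of those 12 fits. The other gene that rose, Spp1, is described with the strain difference. Of 15 genes of the GABAergic interneuron lineage 1 fell (6.67%), Olig3, a progenitor factor (-0.31 ± 0.09, adjusted p = 0.0396). Its call was lost in 8 of those 12 fits, when blocked by array series (adjusted p = 0.0541) and with equal medians (adjusted p = 0.267).

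Progenitor and growth genes gave few calls. Over all genes, 15.8% had an unadjusted p under 0.05 (limma). Of 26 cell cycle genes 0 were called (4 at that p), with a median change of 0.04, and Mki67, the proliferation marker, averaged 10.07 and 9.58 in B6 and D2 at E16, against 9.82 and 9.74 at E15. Of 22 ventricular zone and radial glia genes 0 were called (7 unadjusted) with a median of -0.13, of 20 Notch pathway genes 0 (3 unadjusted) with 18 below 0 and a median of -0.09, and of 19 Bergmann glia and astrocyte genes 0 (5 unadjusted) with a median of 0.12. Ribosomal protein, respiratory chain and cholesterol synthesis genes were not called either, with 0, 3 and 2 members at an unadjusted p under 0.05 and medians of -0.05, 0.01 and -0.06.

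Ligands and receptors of growth pathways were called in both directions. Of 27 IGF, FGF and neurotrophin genes 2 rose (7.41%, against 2.53% of all genes) and 2 fell (7.41%, against 0.906%). Those that rose were Igfbp5, an IGF-binding protein (0.71 ± 0.14, adjusted p = 0.00189), and Igf1, the growth factor (0.38 ± 0.08, adjusted p = 0.00266). Igfbp5 was 12.22 to 13.25 at E16 and 11.48 to 12.53 at E15, overlapping between the strains but not within either. The 2 that fell were FGF ligands, Fgf15 (-0.57 ± 0.15, adjusted p = 0.0195) and Fgf17 (-0.35 ± 0.09, adjusted p = 0.0147), a signal of the midbrain-hindbrain organizer. Of 13 Sonic hedgehog pathway genes 2 rose (15.4%), Ccnd1 and Hhip, a hedgehog-binding inhibitor and pathway target (0.34, a call lost in 8 of the 12 fits that left out 1 array). Of 29 WNT and BMP pathway genes Msx3 fell (3.45%). Fgf15 was not called when blocked by array series (adjusted p = 0.0618).

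Of 28 chromatin and RNA-binding regulators 3 rose (10.7%, against 2.53% of all genes), Ezh2, the H3K27 methyltransferase (0.88 ± 0.24), Tet1, a DNA demethylation enzyme (0.71), and Rbfox1, a neuronal splicing factor (0.64). Ezh2 did not overlap between the ages in B6 (10.22, 10.48 and 10.47 at E16 against 9.10, 8.25 and 9.46 at E15) and did in D2 (10.14, 10.57 and 10.39 at E16 against 8.81, 10.57 and 10.80 at E15). Ezh2 was also not called without D2 E15 replicate 1 (0.57, adjusted p = 0.237). When blocked by array series Ezh2 and Tet1 were not called (adjusted p = 0.178 and 0.216). Among adhesion genes Cdh8, Cdh7 (0.41) and Ncam2, a neural cell adhesion gene (0.41), were the 3 of 40 that rose (7.5%). Among 24 cytoskeletal genes Map1a, a microtubule-associated gene, rose (0.51) and Marcksl1 fell. That was 4.17% each way, against 2.53% of all genes higher and 0.906% lower. The Map1a call was lost when blocked by array series (0.27, adjusted p = 0.381) and in 7 of the 12 fits that left out 1 array. The neuronal glucose transporter Slc2a3 rose by 0.38.

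Several lists of other tissues gave 0 calls, while the meninges and fibroblast list gave 3. Choroid plexus, microglia and macrophage, hindbrain Hox, midbrain and brainstem, and immediate early genes gave 0 calls, with 2 of 11, 2 of 17, 0 of 5, 2 of 13 and 1 of 12 members at an unadjusted p under 0.05 (limma), against 15.8% of all genes. Medians of 3 of these lists differed in sign between the strains: in D2 and B6 they were 0.15 and -0.22 for microglia and macrophage genes, 0.13 and -0.21 for midbrain and brainstem genes, and 0.20 and -0.05 for immediate early genes. The mean over the immediate early list was 8.03, 7.91 and 7.82 in D2 at E16, against 7.73, 7.73 and 7.68 in D2 at E15. Ttr, the choroid plexus transthyretin, read 7.41 to 7.99 at E16 and 6.72 to 7.84 at E15 (adjusted p = 0.725). Of 24 endothelial and pericyte genes 1 rose (4.17%, against 2.53% of all genes), Flt1, a VEGF receptor (0.46 ± 0.11, adjusted p = 0.0104). Of 21 meninges and fibroblast genes 3 rose (14.3%): Spp1, Pdgfra and Col1a1, a collagen chain. Col1a1 changed by 0.61 in D2 and 0.02 in B6, a strain difference of 0.58 that was not called (adjusted p = 0.43), and its call in the mean was lost in 9 of the 12 fits that left out 1 array. The mean over the meninges list was 7.59, 7.44 and 7.35 in D2 and 7.14, 7.17 and 7.17 in B6 at E16, against 7.26, 7.23 and 7.08 in D2 and 7.15, 7.17 and 7.21 in B6 at E15. The part of such tissue in the D2 results was not tested. Xist, the X-inactivation RNA of female cells, ran from 6.62 to 11.25 at E16 and from 7.54 to 10.81 at E15, and its change of 0.76 ± 0.75 was not called (adjusted p = 0.699).

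Taken alone, each strain gave fewer calls. In B6 262 probes were called (0.983%), 249 of them higher (0.935%), and in D2 442 (1.66%), 362 of them higher (1.36%), and 18 probes were called in both strains in the same direction. The B6 count was 2 without B6 E15 replicate 2, 7 without B6 E16 replicate 3, 10 without B6 E16 replicate 2 and 35 without B6 E15 replicate 1. The D2 count was 73 without D2 E16 replicate 1, 123 without D2 E15 replicate 3, 195 without D2 E15 replicate 1 and 211 without D2 E16 replicate 2, and 901 without D2 E16 replicate 3. The difference between the strains in the change was itself tested, and 2 probes passed (0.00751%), 1 each for Spp1 and Ccl4, with 2447 probes at an unadjusted p under 0.05.

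Spp1 encodes osteopontin, a secreted glycoprotein made by several neurons, bone cells and phagocytes. It read 10.02, 10.16 and 10.05 in D2 and 6.52, 6.82 and 6.61 in B6 at E16, against 8.08, 7.97 and 7.75 in D2 and 6.56, 6.43 and 6.84 in B6 at E15. In D2 the ages were far apart, and in B6 all 6 arrays lay close to the array median. The change was 2.14 in D2 (adjusted p = 4.86e-09) and 0.05 in B6 (adjusted p = 0.979), a difference of 2.10 ± 0.30 (adjusted p = 0.000176) that was called without each of the 12 arrays in turn (1.98 to 2.18) and when blocked by chip (2.28, adjusted p = 0.000198). In B6 the Spp1 mean reached 8.92 at P3 and 9.69 at P6, against 10.39 and 10.46 in D2. At E12 it was 6.11 in B6 and 7.07 in D2. Whether the probe binds equally well in both strains was not tested.

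Ccl4, a chemokine of macrophages and microglia, read 8.04, 8.11 and 7.47 in D2 and 6.19, 6.37 and 6.21 in B6 at E16, against 6.61, 6.47 and 6.42 in D2 and 6.20, 6.35 and 6.54 in B6 at E15. Only the D2 E16 arrays stood clearly above the array median. The strain difference in its change was 1.48 ± 0.27 (adjusted p = 0.0209), was called in 4 of the 12 fits that left out 1 array, and reached an adjusted p of 0.999 once the chip was a fixed block. By E17 the D2 mean was 6.91 and by E18 it was 6.42. The means over 17 microglia and macrophage genes were 7.46, 7.45 and 7.35 in D2 and 7.23, 7.18 and 7.20 in B6 at E16, against 7.47, 7.25 and 7.14 in D2 and 7.34, 7.54 and 7.37 in B6 at E15. Whether the number of such cells took part in the Ccl4 signal was not tested.

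**Figure D5:**
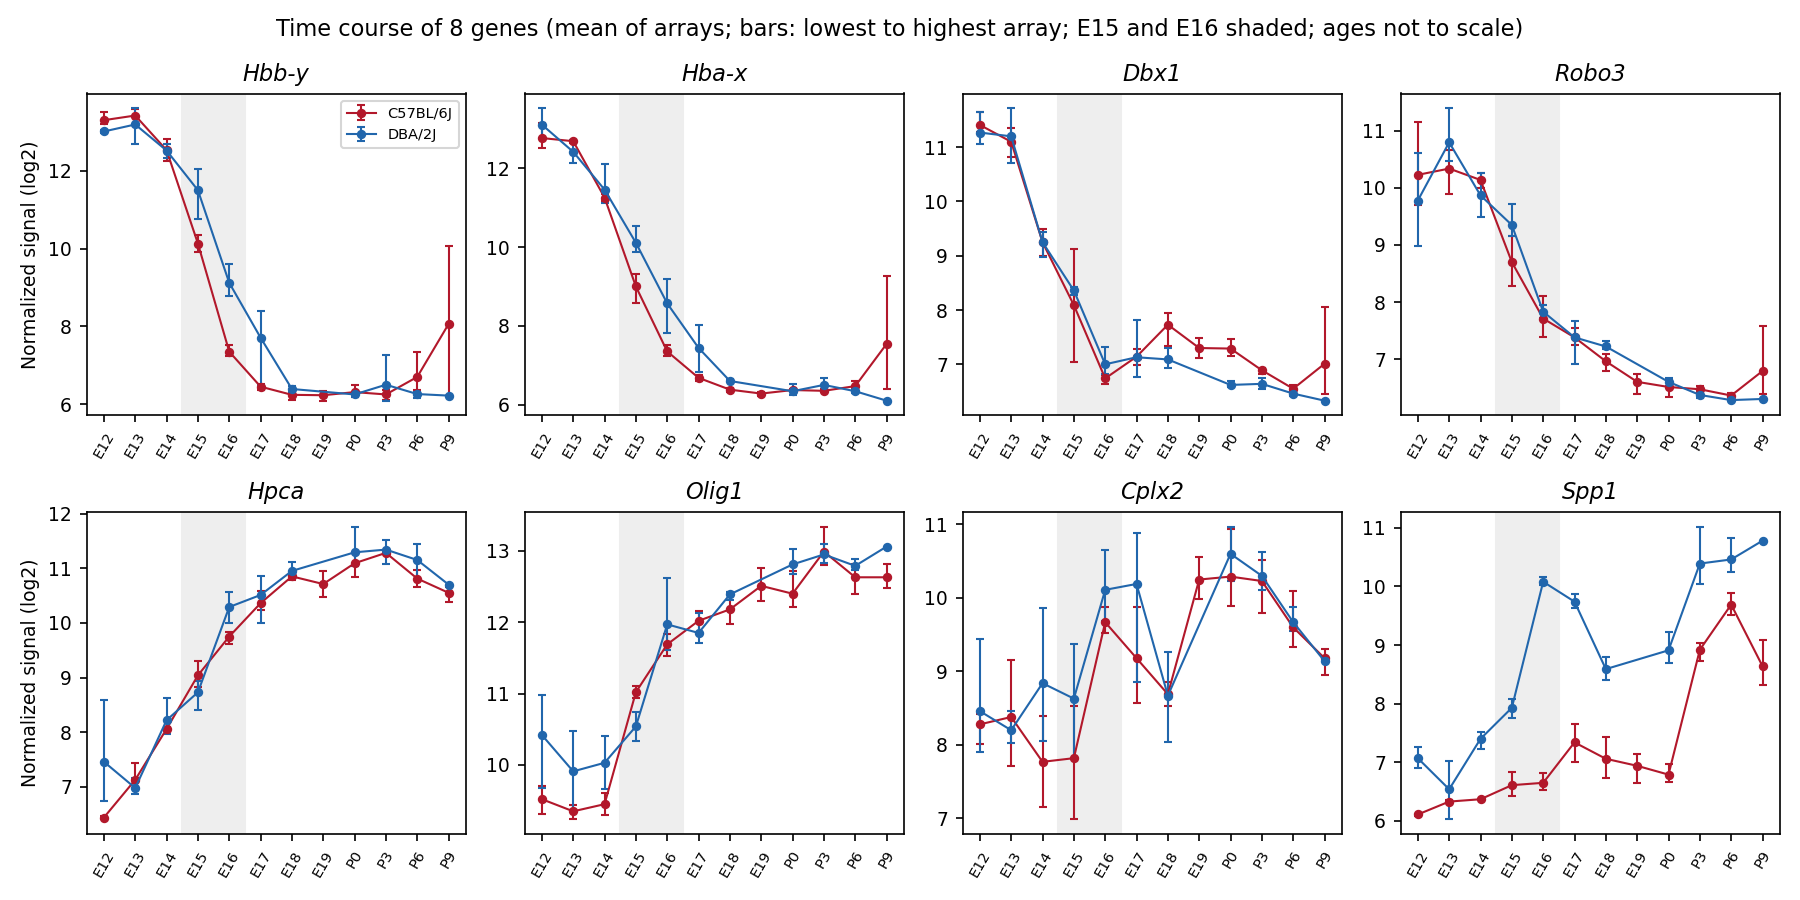
Mean normalized log2 signal of 8 genes at each age from E12 to P9 in C57BL/6J and DBA/2J, with bars from the lowest to the highest array and E15 and E16 shaded. Hbb-y, Hba-x, Dbx1 and Robo3 fall through the shaded step, Hpca and Olig1 climb through it, Cplx2 is higher at E16 than at E15 and lower again at E18, and Spp1 separates the strains.

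The genes that stayed called when blocked by chip, chosen after their values were seen, numbered 20, with 13 higher and 7 lower. Besides Hbb-y, Hba-x, Dbx1, Grm5, Grm7, Hpca and Spp1 they included Grin3a, an NMDA receptor subunit, at 10.93, 11.15 and 11.16 in B6 and 11.15, 11.04 and 11.01 in D2 at E16, against 10.74, 10.56 and 10.60 in B6 and 10.05, 10.45 and 9.99 in D2 at E15. The 6 E16 arrays were above the 6 E15 arrays, a change of 0.67 ± 0.12 (adjusted p = 0.000683). Eln, which encodes elastin, rose by 0.69 ± 0.11 (adjusted p = 0.000127), and Arhgef3, a guanine nucleotide exchange factor, by 0.87 ± 0.13 (adjusted p = 5.88e-05). In B6 alone Grin3a, Eln and Arhgef3 changed by 0.45, 0.47 and 0.50 and were not called (adjusted p = 0.249, 0.143 and 0.218). In D2 they changed by 0.90, 0.92 and 1.25 and were called, while the strain difference was called for none of them. Rab26, a small GTPase of vesicle traffic, read 8.03, 7.96 and 8.02 at E16 against 7.15, 7.25 and 6.73 at E15 in D2, and in B6 6.98, 7.02 and 7.24 at E16 against 6.90, 7.07 and 6.90 at E15. The strain difference in the Rab26 change was 0.84 and was not called (adjusted p = 0.377). Sh3rf1, a scaffold and ubiquitin ligase gene, and Dyrk3, a kinase, were among the falls (-0.39 and -0.31).

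One further rise was large and precise without being among the 12 largest, and was chosen after its values were seen. Ppargc1a, the coactivator of mitochondrial genes, read 8.64, 9.19 and 9.35 in B6 and 8.64, 8.57 and 9.14 in D2 at E16, against 7.66, 7.36 and 8.02 in B6 and 7.35, 8.42 and 7.99 in D2 at E15. The ages did not overlap. The change was 1.12 ± 0.15 (adjusted p = 1.55e-05), and 0.80 when blocked by chip (adjusted p = 0.145), while 22 respiratory chain genes had a median change of 0.01.

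The step from E15 to E16 was also set against other steps. The steps E14 minus E13 and E15 minus E14 called 2005 (7.52%) and 1097 (4.12%) probes, E17 minus E16 called 0 (1284 at an unadjusted p under 0.05, limma) and E18 minus E17 called 573 (2.15%). The E16 minus E15 change differed from the mean of the E14 minus E13 and E18 minus E17 changes for 1994 probes (7.48%), 1198 of them (4.5%) upward, but for 62 when blocked by array series and 14 when blocked by chip. Genes with the largest differences included Cplx2, Pdap1, Chd1, Zfp326 and Luc7l3, a splicing factor, upward, and Hbb-y, Etv1, Chn2, Tbr1 and Lbh downward. Of the 354 genes higher at E16 than E15, 58 (16.4%) were lower at E18 than E17, against 0.806% of all genes. These 58 made up 51.3% of the 113 genes called lower at E18, while 2.53% of all genes were called higher at E16. When blocked by array series 165 genes were higher at E16, 2 were lower at E18, and 1 was shared. The array series with most E15 arrays held 1 of 6 arrays at E16 and 1 of 6 at E17, against 3 of 6 at E15 and 4 of 6 at E18, so array series and age overlapped in part.

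Of the 127 genes lower at E16, 25 (19.7%) had also been lower at E14 than E13, against 3.64% of all genes, and 1 was higher at E18 than E17, against 1.41% of all genes. Of the 354 genes higher at E16, 82 (23.2%) had also been higher at E14 than E13, against 6.23% of all genes. Hpca rose at each of these ages in both strains, with its largest D2 step from E15 to E16. Its B6 means were 8.06 at E14, 9.04 at E15, 9.75 at E16, 10.36 at E17 and 10.85 at E18, and its D2 means 8.22, 8.73, 10.29, 10.51 and 10.95.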

How the data were processed

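The authors deposited 1 table per strain whose values are intensity on a linear scale (46632 probes, called average signal per the file headers of B6, with no word in those of D2), and a matrix used as an alternative whose values are a score with mean 8 and SD 2 on each array, per the deposited values. The sources used here name no background step and give no probe sequences. All 66 arrays were quantile normalized together and taken to log2. Probes were kept (26645) where all arrays of some group of 2 or more placed them in the upper part of the signal, over the array median. One mean per strain and age was fitted in limma 3.58.1 (R 4.3.3, 43 residual degrees of freedom). Each E16 minus E15 change is a difference of log2 means of 3 arrays a group. Its SE and p-value rest on 1 estimate of the spread per probe, shared by the groups of all ages in the 66 arrays. They do not rest on the spread within the E15 and E16 groups alone. The number of arrays limits the precision. Genes were named through RefSeq (14017 genes, brightest probe each). This restriction to matched genes followed a first look at the results. Named are the 12 largest rises and falls, up to 4 called members of each list, the strain and step differences, and bright markers of other tissues. Some named genes are not reported here. Zic1, Lhx1 and Mki67 were picked after their values were seen. The members and lists were chosen with earlier results of these data known. The fit was tested on simulated data with independent noise on each array. Those data held no chip or array series effect, so the test does not cover such effects. Nothing in the labels ties samples to separate litters, so p-values measure the spread between samples of a group, pooled over the whole series.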

Additional observations from a re-analysis of the deposited data

Results flagged for a closer look

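The change of Spp1 between E15 and E16 differed between the strains by 2.10 on the log2 scale, D2 minus B6, in a test of the difference itself (limma, adjusted p = 0.000176). The same test gave 1.48 for Ccl4 (adjusted p = 0.0209), which was not called without the pair of D2 E16 arrays that share a chip (1.08, adjusted p = 1).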

How the results depend on the processing

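Age could not be separated from chip within a chip, and 3 arrays per strain and age limit what could be called. Counts are probes called in the mean of both strains, in B6, in D2, in the strain difference and in the step comparison. The step comparison is with the mean of the E14 minus E13 and E18 minus E17 changes. In that order the counts were 901, 262, 442, 2 and 1994. Scaling to equal medians gave 1435 in the mean (1397 higher, 38 lower) and 744 in B6, the authors' score matrix 520 in B6, no filter 121 in B6, and the 12 arrays alone 530 in the mean and 1 in B6. The array series as a fixed block gave 326 in the mean, 242 in D2 and 62 for the steps, and as a random block, chosen after seeing the data, 586 in the mean and 522 for the steps. The chip as a fixed block gave 26, 0 (1481 at an unadjusted p under 0.05, limma), 64, 1 and 14, and as a random block 285 in the mean, 7 in B6, 241 in D2 and 109 for the steps. Array weights, whose estimation did not converge cleanly, gave 4034, 2276, 5430, 4225 and 5599. Without the pair of D2 E16 arrays on the same chip, chosen after seeing the data, there were 104 in the mean, 1 in D2, 1 in the strain difference and 647 for the steps. Leaving out 1 array at a time gave 293 to 1164, 2 to 476, 73 to 901, 1 to 7 and 1036 to 2584. The cause of these shifts was not tested.

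The residuals of same-numbered E16 and E15 arrays correlated between -0.21 and 0.32. Whether the replicate numbers paired the samples could not be decided from these values. By the same measure 2 pairs of arrays from different strains on a shared chip correlated at -0.01 (E16) and 0.14 (E15). The D2 E16 pair on a shared chip correlated at 0.01. That pair belongs to 1 group of 3 arrays, where taking off the group mean pushes residuals towards opposite signs. Its value is therefore not comparable with the others. The correlation within chips estimated for the random block was 0.48. A fit with the replicate block gave 958, 287, 472, 2 and 2077 probes. Over all alternatives the changes of the named genes were on the same side of the threshold 1938 times, lost the call 412 times and gained it 2 times. A turn of direction was counted only for genes called in the unaltered fit, and occurred 0 times. Genes not called there could change sign and still count as on the same side. Col4a1, for example, ran from -0.09 to 0.15 in the fits that left out 1 array.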

Other observations

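One B6 P9 array, replicate 3, stood apart in the genes with the largest falls. It read 10.07 for Hbb-y, 9.27 for Hba-x, 8.06 for Dbx1 and 7.58 for Robo3, against 6.21 and 7.89, 6.40 and 6.95, 6.46 and 6.51, and 6.39 and 6.41 on the other B6 P9 arrays. It enters no E16 or E15 mean.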
